A study of Homo sapiens with 6 samples.

Results

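The 10 genes described here are the subunits, oxygen-sensing hydroxylases and non-glycolytic target genes of the hypoxia-inducible factor (HIF) pathway, measured as RNA in LX-2 cells given rhSema3C or PBS. They were taken by name from the deposited gene table, which holds 33900 genes, and each name matched 1 row. They are the subunits HIF1A, EPAS1 and ARNT, the prolyl hydroxylases EGLN1 and EGLN3, and the targets NDRG1, ADM, BNIP3, ANKRD37 and KDM3A. HIF is a dimer of an alpha subunit and ARNT. When oxygen is available, EGLN enzymes hydroxylate the alpha subunit, which is then bound by the VHL ubiquitin ligase and degraded. When oxygen is short, the alpha subunit is stable and the dimer binds short DNA motifs near its targets. The alpha subunits are controlled mainly as proteins, and protein was not measured by these data. In hepatic stellate cells, the collagen-producing cells of the liver, hypoxia is known to induce genes of vessel growth and matrix.

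LX-2 is an established human hepatic stellate cell line, so the results come from 1 line. RNA sequencing was performed on 3 samples treated with recombinant human Sema3C (rhSema3C), a secreted semaphorin, at 300 ng/ml for 48 h, and on 3 control samples given PBS for the same time. The authors give medium with serum as the general culture medium of LX-2, and no sample was labelled as grown under low oxygen. The labels call the samples biological replicates without naming separate cultures, so p-values measure the spread between these samples.

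The total counts ranged from 68267808 to 89245585 per sample, so that 1 count was worth 0.011 to 0.015 CPM, the count divided by the TMM-scaled library size and given per 1000000 counts. Of 10 stellate cell markers, 7 were expressed above the level used for testing, COL1A1, VIM and TIMP1 among them, while DES and LRAT had mean FPKM values of 0.043 or less and COL1A2 of 0.13 or less in each group. The hepatocyte marker ALB, the epithelial marker EPCAM and the leukocyte marker PTPRC had between 0 and 12 counts in every sample. The summed FPKM of the stellate list, mostly VIM, was 1380 to 1440 in the PBS samples and 1090 to 1150 in the rhSema3C samples. VIM alone had a mean FPKM of 1035 with PBS and 834.5 with rhSema3C. Of the 7 stellate markers tested as described below, 5 were lower, HAND2 was higher and PDGFRB was not called. Of all genes tested, 30.6% were lower and 31.7% higher. The epithelial list, which was mostly KRT8 and KRT18, was 117 to 128 in PBS samples and 74.5 to 75.6 in rhSema3C samples. The leukocyte list, mostly CD68, was 94.7 to 103 and 67.2 to 72.8. The hepatocyte list, almost all SERPINA1, was 2.68 to 3.18 and 3.52 to 4.18. The endothelial list, almost all TIE1, was 29.1 to 32.2 and 24.4 to 26.2, while its member VWF, under the level for testing, was higher without overlap, at 1.01 to 1.33 CPM with PBS and 5.58 to 7.80 CPM with rhSema3C. Mitochondrial genes took 4.75 to 5.42% of the counts in the PBS samples and 3.73 to 3.93% in the rhSema3C samples. The part of these shifts in the results was not tested. In bulk RNA, fewer cells of a kind and less RNA per cell cannot be told apart.

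Counts were compared with edgeR's quasi-likelihood test over the 14178 genes with a mean FPKM (fragments scaled to transcript length and library size) of at least 0.5, which 9 of the 10 genes passed. EGLN3 did not pass. Among the 9 genes, 7 were higher with rhSema3C and 1 was lower at an adjusted p below 0.05. A large part of the transcriptome moved in this comparison, since 31.7% of all genes tested were higher and 30.6% were lower by the same rule. By a rule that asks for a change of more than 2-fold with p below 0.05 before adjustment, NDRG1 and KDM3A were higher and none of the 9 was lower. Of all genes tested, 3.42% were higher and 2.12% lower by that rule. The samples of the groups did not overlap in 8 of the 9 genes, 7 with every rhSema3C sample above every PBS sample and 1 with every one below. That held for 34.6% (above) and 33.3% (below) of all genes tested. The median log2 fold change was 0.63 for the 9 genes and 0.02 for all genes tested. The share of rises among all calls depended on the scaling, being 50.9% with TMM factors, 62.2% with library size alone, 61.3% with limma on log2(FPKM + 1) and 74.1% with values rescaled to TPM. Library size alone moved the median of all genes by 0.11 on the log2 scale and TPM moved it by 0.20.

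**Figure D1:**
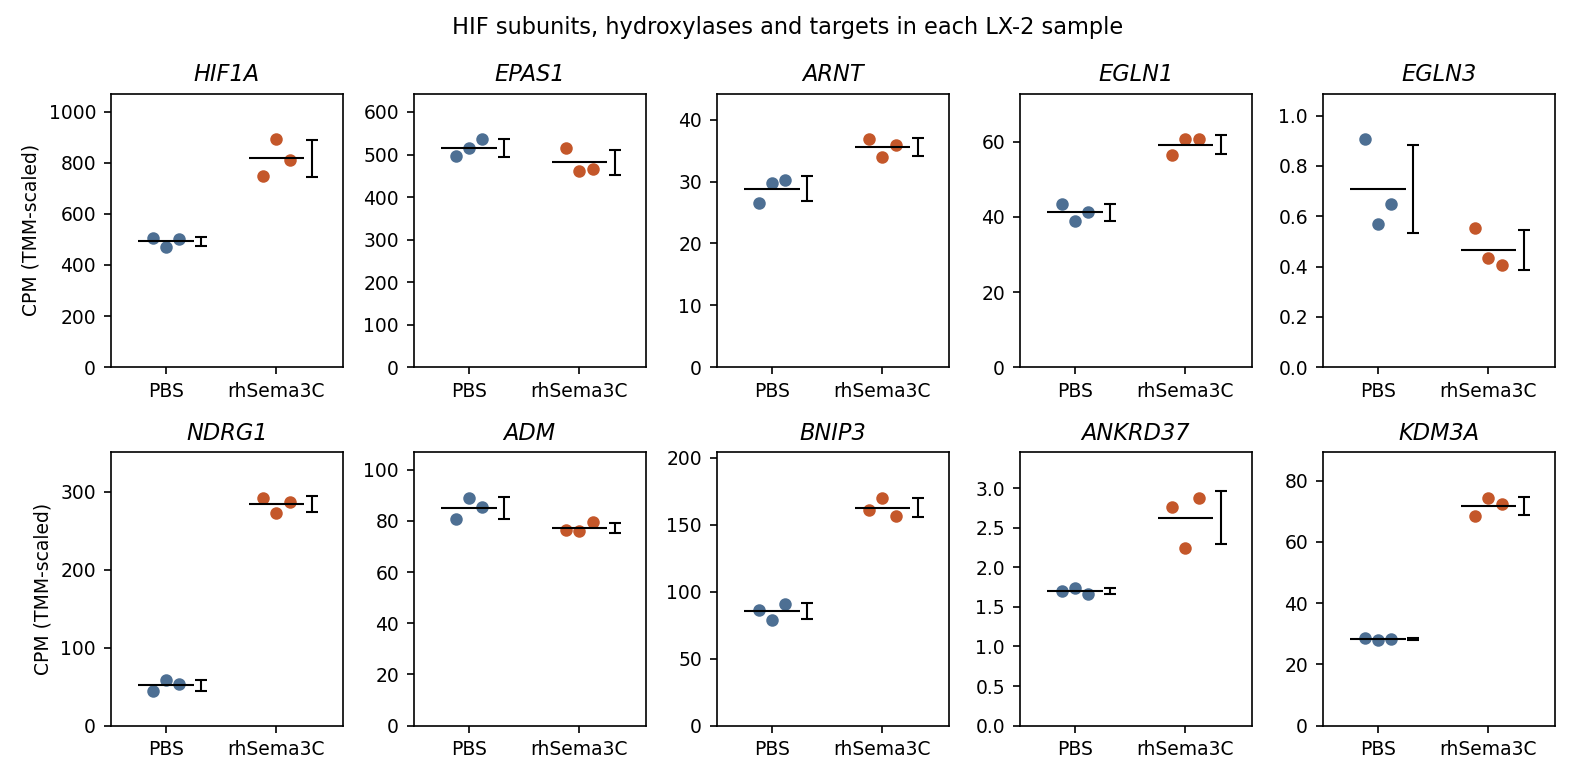
CPM after TMM scaling in each of the 6 samples for the 10 genes, with each y axis starting at 0; points are samples, the horizontal line is the group mean and the bar beside it is the SD (n = 3). NDRG1, KDM3A, BNIP3, HIF1A, EGLN1, ARNT and ANKRD37 have every rhSema3C sample above every PBS sample, the EPAS1 groups overlap, and the ADM and EGLN3 groups lie lower with rhSema3C.

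Of the subunits, the HIF1A transcript rose with rhSema3C, the EPAS1 transcript did not pass the test and the ARNT transcript rose less. HIF1A (ENSG00000100644, chr14:61695513-61748258 of GRCh38, plus strand) encodes HIF-1 alpha, the widely expressed oxygen-labile subunit. Its CPM values, here and below in the order of the replicate numbers, were 505, 472 and 501 for PBS against 747, 892 and 812 for rhSema3C. The lowest rhSema3C sample was above the highest PBS sample, and the rhSema3C samples were spread more widely. The group means were 493 ± 18.3 and 817 ± 72.6 CPM (SD, n = 3), and the log2 fold change was 0.73 (standard error 0.06, edgeR adjusted p = 1.5e-06). HIF1A shares exon sequence with the antisense gene HIF1A-AS1, which had at most 0.442 CPM in any sample, and with AL137129.1 on its own strand, at most 0.0327 CPM.

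EPAS1 (ENSG00000116016, chr2:46293667-46386696, plus strand) encodes HIF-2 alpha, the second oxygen-labile subunit. It had 496, 514 and 536 CPM in the PBS samples and 516, 462 and 466 CPM in the rhSema3C samples. rhSema3C replicate 1 fell inside the PBS range and the other two lay under it. On the log2 scale the change was -0.10 (standard error 0.05, 95% interval -0.21 to 0.02, edgeR adjusted p = 0.12). Without rhSema3C replicate 1 it was -0.15, with an adjusted p of 0.018, and with library size alone it was 0.0086, so its sign depended on the scaling.

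ARNT (ENSG00000143437, chr1:150809713-150876708, minus strand) encodes the oxygen-independent partner, also called HIF-1 beta. It had 26.5, 29.8 and 30.2 CPM in the PBS samples and 36.9, 34.0 and 35.9 CPM in the rhSema3C samples. The groups were separate but close, 28.8 ± 2.02 against 35.6 ± 1.43 CPM (SD, n = 3). The log2 fold change of ARNT was 0.30 (standard error 0.07, edgeR adjusted p = 0.0032), which placed it above 71.4% of the genes tested.

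The balance of the alpha subunit transcripts was compared within each sample, where the scaling between samples has no part. The log2 ratio of EPAS1 to HIF1A counts was -0.03, 0.13 and 0.10 in the PBS samples and -0.53, -0.95 and -0.80 in the rhSema3C samples. Every rhSema3C value was below every PBS value, with a mean difference of -0.83 (exact permutation test, two-sided, p = 0.1, which is the lowest value possible with 3 samples in each group). Per transcript length, the EPAS1 to HIF1A ratio of FPKM was 0.69 to 0.77 with PBS and 0.37 to 0.49 with rhSema3C.

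Of the hydroxylases, EGLN1 rose and EGLN3 was barely expressed. EGLN1 (ENSG00000135766, chr1:231363751-231422287, minus strand) encodes PHD2, the main hydroxylase of HIF-1 alpha in normal oxygen, and is itself a HIF target. Its CPM values were 43.5, 38.9 and 41.2 with PBS and 56.4, 60.6 and 60.7 with rhSema3C. The groups were well apart, at 41.2 ± 2.31 and 59.2 ± 2.47 CPM (SD, n = 3), and the log2 fold change was 0.52 (standard error 0.06, edgeR adjusted p = 1.9e-05).

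EGLN3 (ENSG00000129521, chr14:33924227-34222953, minus strand) encodes PHD3, a hydroxylase whose transcript is strongly induced by hypoxia in many cell types. It had 78, 40 and 43 counts in the PBS samples and 48, 40 and 34 counts in the rhSema3C samples, or 0.907, 0.571 and 0.651 CPM against 0.554, 0.435 and 0.406 CPM. The rhSema3C values lay just under the PBS values, and PBS replicate 1 was the highest of the 6 samples. With every gene of the table in the fit, the log2 fold change of EGLN3 was -0.62 (standard error 0.34, 95% interval -1.40 to 0.15, edgeR adjusted p = 0.26). EGLN3 thus passed the test in neither direction, and the interval reached no higher than a rise of 0.15. The log2 ratio of EGLN3 to EGLN1 counts was -5.89 ± 0.27 with PBS and -7.01 ± 0.30 with rhSema3C (SD, n = 3), with no overlap between the groups (exact permutation test, p = 0.1, the smallest possible).

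Of the 5 target genes, 4 rose, and NDRG1 had the largest change of the 10 genes. NDRG1 (ENSG00000104419, chr8:133237175-133302022, minus strand) encodes a stress-responsive cytoplasmic protein and is widely used as a marker of hypoxia. Its CPM values were 44.2, 58.1 and 53.8 in the PBS samples and 292, 272 and 286 in the rhSema3C samples. No rhSema3C sample came near the PBS range, and the means were 52.1 ± 7.11 and 284 ± 10.3 CPM (SD, n = 3). The log2 fold change of NDRG1 was 2.45 (standard error 0.08, edgeR adjusted p = 3e-09), a 5.45-fold rise that exceeded the fold change of 99.9% of the genes tested.

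KDM3A (ENSG00000115548, chr2:86440647-86492716, plus strand) encodes a demethylase of histone H3 lysine 9. Its values were 28.6, 28.0 and 28.2 CPM with PBS and 68.5, 74.5 and 72.4 CPM with rhSema3C. The PBS samples were nearly identical, and all rhSema3C samples lay far above them. This was a 2.54-fold rise, or 1.35 on the log2 scale (standard error 0.05, edgeR adjusted p = 9e-09).

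BNIP3 (ENSG00000176171, chr10:131966455-131982013, minus strand) encodes a mitochondrial outer membrane protein that serves as a receptor for mitophagy. It had 86.5, 79.0 and 91.0 CPM in the PBS samples and 161, 170 and 157 CPM in the rhSema3C samples. The groups were clearly separate and the spread within each was small, 85.5 ± 6.06 against 163 ± 6.98 CPM (SD, n = 3). The log2 fold change of BNIP3 was 0.93 (standard error 0.06, edgeR adjusted p = 1.4e-07), just under the 2-fold rule. It was past a 2-fold change in 4 of the alternatives, at 1.03 on the log2 scale with a mean FPKM of at least 5, 1.03 with library size alone, 1.03 with limma on log2(FPKM + 0.1) and 1.14 with TPM.

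ANKRD37 (ENSG00000186352, chr4:185396021-185400241, plus strand) encodes a small ankyrin repeat protein and had the lowest expression of the targets. It had 146, 122 and 110 counts in the PBS samples and 239, 206 and 241 counts in the rhSema3C samples, or 1.70, 1.74 and 1.66 CPM against 2.76, 2.24 and 2.88 CPM. The rhSema3C samples were all higher but unequal, with replicate 2 the nearest to the PBS samples. On the log2 scale the rise was 0.63 (standard error 0.19, edgeR adjusted p = 0.014), and without rhSema3C replicate 3 it was 0.56, with an adjusted p of 0.055. Exons of ANKRD37 overlap those of UFSP2 on the other strand, which rose as well, with a log2 fold change of 0.51 (standard error 0.09, edgeR adjusted p = 0.00063). The use of strand in the counting is not given in the sources used here, so the reads of this pair may not be separable.

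ADM (ENSG00000148926, chr11:10305073-10307397, plus strand) encodes adrenomedullin, a secreted vasodilator peptide. Its values were 80.7, 89.1 and 85.2 CPM with PBS and 76.5, 75.9 and 79.5 CPM with rhSema3C. The groups did not overlap, but the gap between their nearest samples, 79.5 and 80.7 CPM, was smaller than the SD of either group. The log2 fold change of ADM was -0.14 (standard error 0.05, 95% interval -0.24 to -0.03, edgeR adjusted p = 0.029). This call was lost in 10 of the 16 alternative settings and the sign turned in 1 more, TPM, where ADM was at 0.09 and the median of all genes at 0.23. Without PBS replicate 2 its adjusted p was 0.11, without PBS replicate 3 it was 0.065, without rhSema3C replicate 1 it was 0.068 and without rhSema3C replicate 2 it was 0.079. The log2 ratio of ADM to NDRG1 counts was 0.72 ± 0.13 with PBS and -1.88 ± 0.05 with rhSema3C (SD, n = 3), a difference of -2.59 with no overlap between the groups (exact permutation test, p = 0.1, the smallest possible). This pair was chosen because its directions had been seen to differ in earlier results of these data. The separation of its ratio is therefore no independent evidence.

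**Figure D2:**
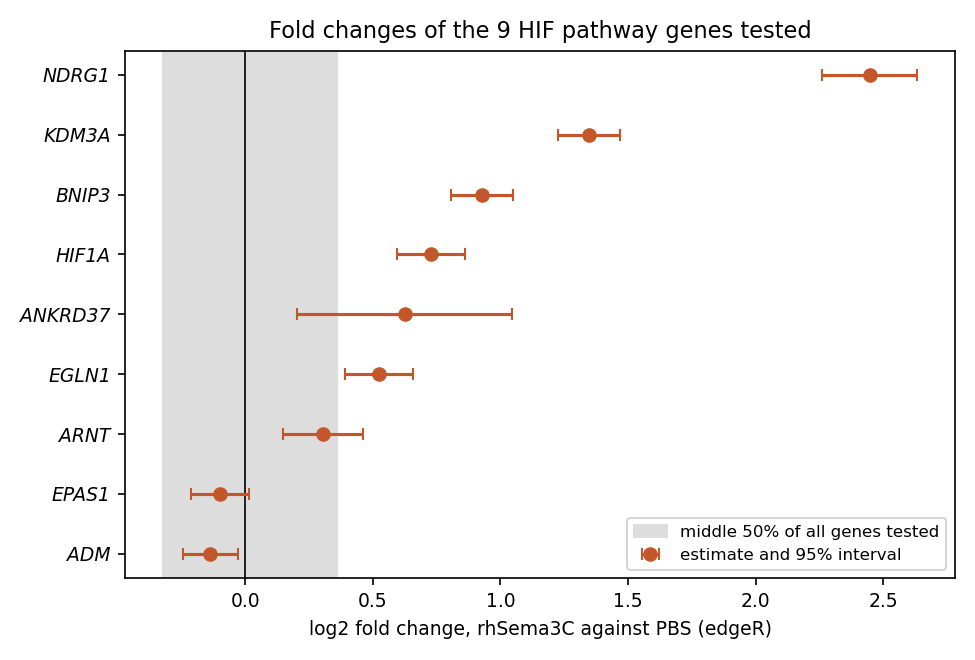
Log2 fold change of rhSema3C against PBS from edgeR for the 9 genes tested, with 95% intervals; the grey band holds the middle 50% of all 14178 genes tested, from -0.32 to 0.36. NDRG1 at 2.45 and KDM3A at 1.35 lie farthest to the right, ARNT lies within the band, and EPAS1 and ADM lie slightly below 0.

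Per transcript length the genes spanned a wide range of levels. In the PBS samples the mean FPKM was 90.2 for HIF1A, 66.6 for EPAS1, 34.5 for ADM, 15.1 for BNIP3, 7.21 for EGLN1, 4.21 for ARNT, 4.08 for NDRG1, 1.996 for KDM3A, 0.697 for ANKRD37, and 0.0889 for EGLN3. The samples of ARNT and NDRG1 overlapped in that order and all other neighbours were separate. In the rhSema3C samples NDRG1, at 23.9 ± 0.854 FPKM (SD, n = 3), stood above EGLN1 at 11.1 ± 0.489, while BNIP3 at 30.9 ± 1.30 was close under ADM at 33.6 ± 0.927. KDM3A, at 5.46 ± 0.238, overlapped ARNT at 5.58 ± 0.219. The transcript of the dimer partner ARNT was therefore far below those of both alpha subunits in either group. FPKM values are not TMM scaled, and for the 10 genes the fold change of FPKM was 1.07 to 1.09 times that of CPM.

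**Figure D3:**
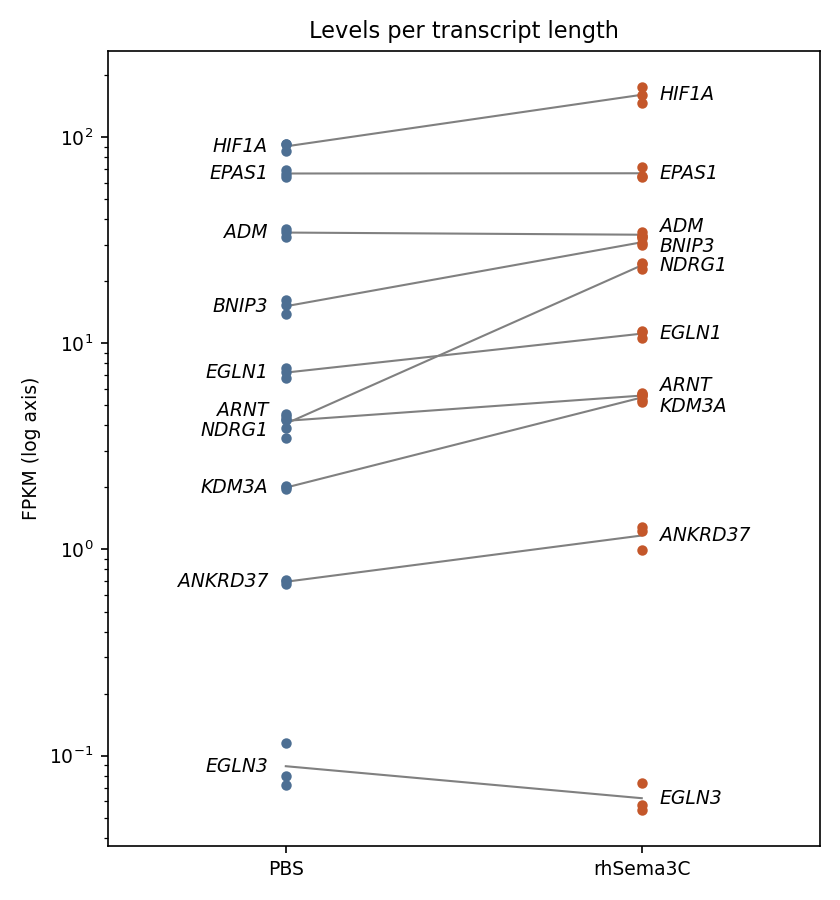
FPKM of the 10 genes in each sample on a log axis, PBS at the left and rhSema3C at the right; points are samples and grey lines join the group means. NDRG1 passes EGLN1, and KDM3A reaches the level of ARNT, while EPAS1 and ADM run flat.

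The HIF dimer recognises the core ACGTG or GCGTG on either strand. Promoter stretches are shown for those genes that rose and had a match, beside that of ADM, to compare this feature. RefSeq promoters (GRCh38.p14, 250 bases before to 50 after the start) were matched by symbol for 9 of the 10 genes, all but NDRG1. HIF1A and KDM3A had 2 promoters each, of which only the one farthest upstream is described. Each stretch is given 5′ to 3′ on the strand of the gene, with matches to the core or its reverse complement in capitals.
BNIP3, chr10:131982015-131982074, minus strand: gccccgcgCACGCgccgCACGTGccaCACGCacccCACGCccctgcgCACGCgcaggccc
ANKRD37, chr4:185396676-185396705, plus strand: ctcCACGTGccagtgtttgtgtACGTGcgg
KDM3A, chr2:86441332-86441361, plus strand: tccgggaggctgtGCGTGtcttgtgagagc
EGLN1, chr1:231422288-231422317, minus strand: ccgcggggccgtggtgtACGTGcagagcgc
HIF1A, chr14:61695296-61695325, plus strand: ttggctgagagcgGCGTGggctggggtggg
ADM, chr11:10304959-10304988, plus strand: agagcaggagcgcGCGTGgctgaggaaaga

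The BNIP3 stretch held the core in 5 places and that of ANKRD37 in 2, where CACGTG, which reads the same on both strands, counted as 1 place. KDM3A, EGLN1, HIF1A and ADM had 1 place each, as did EPAS1, at 117 bases before its RefSeq start. The promoters of ARNT and EGLN3 had no match in this window. ADM, which did not rise, and KDM3A and HIF1A, which rose, each carried GCGTG. Binding of HIF was not measured by these data, and a link between the core and the direction of change was not tested. Such a short core is common. It was in a promoter of 7 of the 9 genes and of 70.6% of the genes tested that have a RefSeq promoter. The difference between these shares was not tested. RefSeq starts can differ from the gene coordinates given above. By those coordinates the EPAS1 match, within chr2:46297277-46297306, lies inside the gene. The KDM3A and ANKRD37 stretches and the EGLN3 promoter also lie inside their genes. The stretches of KDM3A, ANKRD37, ADM and EGLN1 overlap GENCODE exons of the same gene.

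The nearest relatives of the 10 genes did not all follow them. Among hydroxylases, EGLN2 (PHD1) was lower with rhSema3C, at 126, 142 and 130 CPM with PBS and 62.0, 94.1 and 100 CPM with rhSema3C. rhSema3C replicate 1 was well under the other two, and the log2 fold change was -0.63 (standard error 0.14, edgeR adjusted p = 0.0019). HIF1AN, the asparaginyl hydroxylase that blocks coactivator binding to HIF alpha, fell from 156 ± 7.42 to 110 ± 2.28 CPM (SD, n = 3), a log2 fold change of -0.50 (standard error 0.05, edgeR adjusted p = 2.6e-06). EGLN1 thus rose while EGLN2 and HIF1AN fell.

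Among subunits, ARNT2 was lower, with a log2 fold change of -0.57 (standard error 0.11), whereas ARNT was higher. HIF3A had at most 5 counts in any sample. Among targets, BNIP3L, a mitophagy receptor related to BNIP3, rose from 124 ± 6.35 to 198 ± 13.3 CPM (SD, n = 3), a log2 fold change of 0.68 (standard error 0.06, edgeR adjusted p = 1.5e-06). The log2 ratio of BNIP3L to BNIP3 counts was lower with rhSema3C by a mean of -0.25, from 0.54 ± 0.04 to 0.28 ± 0.06, with no overlap between groups (SD, n = 3; exact permutation test, p = 0.1, the smallest possible). In all, 4 such ratios were compared, and the p adjusted over the 4 was 0.1 for each. KDM4B, another histone demethylase, did not pass the test, with a log2 fold change of 0.15 (95% interval -0.02 to 0.32, edgeR adjusted p = 0.11), although the rise was called in 5 of the 15 settings that tested it. These were library size alone (0.26), limma on log2(FPKM + 1) (0.18) or log2(FPKM + 0.1) (0.24), TPM (0.34) and the fit without rhSema3C replicate 2 (0.20, adjusted p = 0.049). VHL, the substrate receptor of the ligase, was at 97.7 to 103 CPM in every sample, with a log2 fold change of -0.02 (95% interval -0.11 to 0.07, edgeR adjusted p = 0.69), and 0.20 with TPM (limma adjusted p = 0.0018), close to the median of all genes there.

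The other genes of the pathway were taken as lists, given beside all 14178 genes tested. Of all genes, 31.7% were higher and 30.6% lower, and 3.42% were higher and 2.12% lower by the 2-fold rule. With TPM, 6934 of all 14178 were higher and 2428 lower. Of 35 other non-glycolytic HIF targets, 32 were tested, and 20 were higher, 5 lower and 7 not called, with a median log2 fold change of 0.64. By the 2-fold rule 9 were higher and none was lower. The largest rises were in VLDLR, a lipoprotein receptor, at 1.51 on the log2 scale, HILPDA, a lipid droplet protein that inhibits lipolysis, at 1.47, and VEGFA, the vessel growth factor, at 1.42. VEGFA had 116, 121 and 109 CPM with PBS and 322, 296 and 306 CPM with rhSema3C, with the groups far apart. HILPDA was as even, at 18.4, 17.8 and 17.0 CPM against 49.9, 48.7 and 48.8 CPM. Among the falls were LOXL2, a collagen crosslinking enzyme, at -0.34, and BHLHE41, a transcriptional repressor, at -0.32. With TPM, 24 were higher and 1 was lower, with a median of 0.86 against 0.23 for all genes. CA9 and EPO, targets that are strongly induced by hypoxia in some cell types, were under the level for testing, with 9 to 72 and 0 to 10 counts per sample, and their groups overlapped.

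Of 14 other HIF regulators, 13 were tested, and 3 were higher, 6 lower and 4 not called, with a median log2 fold change of -0.19. Of all genes tested, 31.7% were higher and 30.6% lower. With TPM, 5 of the 13 regulators were higher and 5 lower and the median was 0.04, under that of all genes. By that setting 6934 of all 14178 genes tested were higher and 2428 lower. SIAH2 and SIAH1, ubiquitin ligases that act on EGLN enzymes, were higher by 0.88 and 0.52 on the log2 scale, and RBX1, a subunit of the VHL ligase, by 0.26. Without PBS replicate 2 or rhSema3C replicate 1 the call of RBX1 was lost, with adjusted p-values of 0.064 and 0.066. The largest falls were those of EGLN2 and ARNT2, given above, and of CITED2, a HIF target that competes with HIF alpha for coactivators, from 180 ± 8.40 to 123 ± 5.37 CPM (SD, n = 3), a log2 fold change of -0.55 (standard error 0.05, edgeR adjusted p = 2.7e-06).

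**Figure D4:**
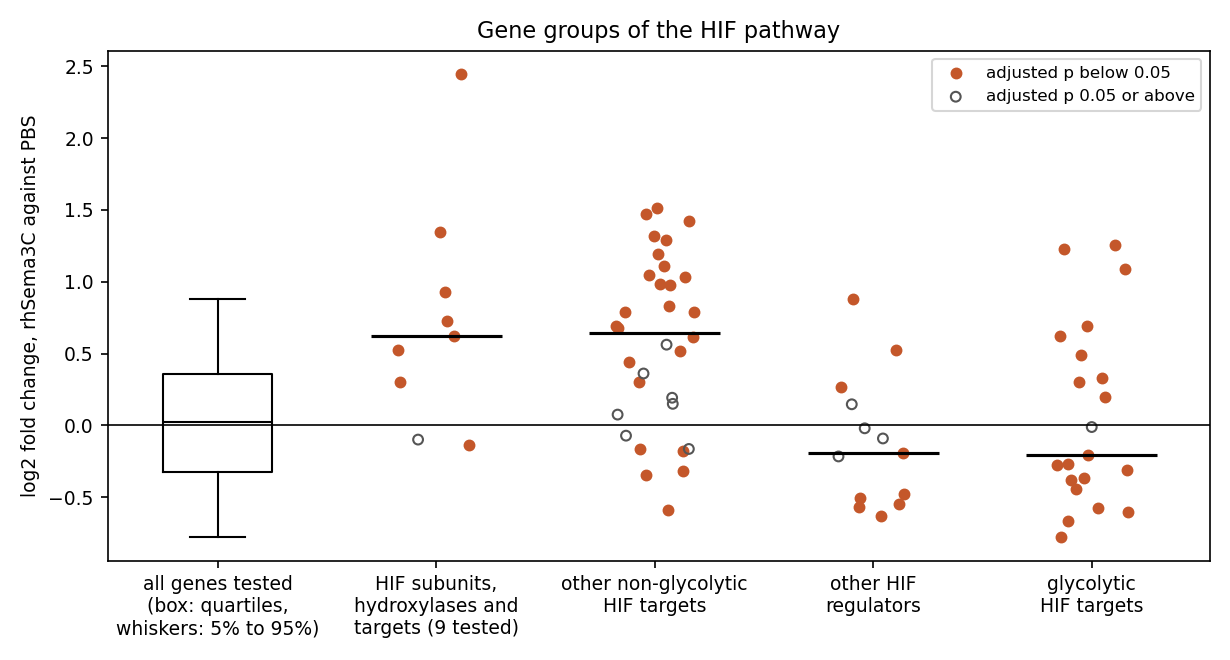
Log2 fold change of rhSema3C against PBS for the 4 groups of HIF pathway genes beside all genes tested; points are genes, filled where the adjusted p is below 0.05, and thick lines are medians. The medians are 0.63 for the 9 genes, 0.64 for the other non-glycolytic targets, -0.19 for the other regulators and -0.20 for the glycolytic targets, against 0.02 for all genes, and with TPM those of the regulators and glycolytic targets turn to 0.04 and 0.02 against 0.23.

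The glycolytic targets were divided. All 21 were tested, with 9 higher, 11 lower and a median of -0.20. With TPM 10 were higher, 6 were lower and the median was 0.02. Over all 14178 genes tested, 31.7% were higher and 30.6% lower, and with TPM 6934 were higher and 2428 lower. HK2, SLC2A3 and PDK1 were higher by 1.25, 1.23 and 1.09 on the log2 scale, and PKM, PGAM1 and SLC16A3 were lower, at -0.78, -0.67 and -0.61. Of the 75 tested genes that the table annotates to the KEGG HIF-1 signaling pathway, the described genes aside, 25 were higher and 29 lower, with a median of -0.05. With TPM, where more of all genes were higher and fewer lower, 37 were higher and 13 lower. Their median was then 0.18, against 0.23 for all genes. Among the KEGG genes called at a mean FPKM of at least 1, IL6 at 1.73, VEGFA and HK2 rose most. AKT2 at -0.64, RPS6KB2 at -0.71 and EDN1, the precursor of endothelin-1, at -1.27 fell most. Of the 121 tested genes under the GO term response to hypoxia, again without the described genes, 33 were higher and 58 lower, with a median of -0.12. With TPM 52 were higher and 33 lower, with a median of 0.10 against 0.23 for all genes. DDIT4, an inhibitor of mTORC1, at 2.62, ITPR1, a calcium channel, at 1.82 and VEGFA rose most, and PLAU, the urokinase, at -1.29, EDN1 and the matrix protein THBS1 at -1.27 fell most. The lists share genes with each other and were not drawn at random, and some of them are also targets of other pathways that were not separated here.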

How the data were processed

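RNA of 3 rhSema3C-treated and 3 PBS-treated LX-2 samples was sequenced on an Illumina NovaSeq platform, and the authors name Cufflinks and cuffmerge for expression analysis. The deposited table gives unnormalised counts for each gene, all whole numbers, which appear to be estimates rounded up. It also gives FPKM values, which the authors scaled to transcript length and library size. The aligner, the genome build and the strand setting are not given in the sources used here. Of the table's gene identifiers, 32887 of 33900 are in GENCODE 29 and 19767 have the same start and end there, so coordinates were read as GRCh38. Titles of the samples gave the groups and replicate numbers, and 0 columns of sample values were left unused.

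Counts were fitted with edgeR's quasi-likelihood test and TMM factors over the 14178 genes whose FPKM averaged 0.5 or more, with Benjamini-Hochberg adjustment over all of them. CPM values use the same factors. Ratios of 2 genes within a sample were compared with exact permutation tests. The rule for named genes took the 10 genes, their nearest relatives, and in each list the 3 largest rises and 3 largest falls with an adjusted p below 0.05 and a mean FPKM of at least 1. A gene that this rule names is not reported here. Marker genes, genes overlapping the 10, and CA9 and EPO fall outside that rule, and CA9 and EPO were chosen after their values were seen. The 10 genes, all lists and the pair of ADM and NDRG1 were chosen with earlier results of these data known. The labels name no batch shared by same-numbered samples, so the block is an alternative only. Other alternatives changed the filter, the scaling, the tool (DESeq2, limma), the pseudocount and the samples left out. The edgeR and limma fits were tested on simulated counts of 14178 genes, 200 of them changed by 1 on the log2 scale. At an adjusted p below 0.05, edgeR recovered 87.5% of the 200 with 18 false calls and limma 89% with 12. The tools used were edgeR 4.0.16, DESeq2 1.42.0 and limma 3.58.1 in R 4.3.3.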

Additional observations from a re-analysis of the deposited data

How the results depend on the processing

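Over the 16 alternative settings, HIF1A, EGLN1, NDRG1 and BNIP3 kept their direction and their call, as did ARNT and KDM3A in the 15 settings that tested them. NDRG1 ranged from 2.30 to 2.60 on the log2 scale, KDM3A from 1.11 to 1.45, BNIP3 from 0.87 to 1.14 and HIF1A from 0.66 to 0.95. With a mean FPKM of at least 5, 4 of the genes were higher, since ARNT, ANKRD37 and KDM3A were no longer tested. The single gene called lower, ADM, was not called (a count of 0) with all genes in the fit (-0.15), with a mean FPKM of at least 5 (-0.036), with library size alone (-0.029), with limma on log2(FPKM + 1) (-0.033) or log2(FPKM + 0.1) (-0.034), with TPM (0.090), or with the replicate block (-0.14). With samples left out in turn, the count lower was 0 to 1 and ADM ranged from -0.17 to -0.10. Without rhSema3C replicate 1 the gene called lower was EPAS1 (-0.15) and not ADM. EPAS1 was above 0 with a mean FPKM of at least 5 (0.0024), library size alone (0.0086), limma on log2(FPKM + 1) or log2(FPKM + 0.1) (0.0028 in each) and TPM (0.13), and ranged from -0.15 to -0.069 with samples left out. ANKRD37 ranged from 0.56 to 0.73 with samples left out. With TPM, 5 other regulators were higher in place of 3. Of all 14178 genes tested, 6934 were then higher in place of 4490, and 2428 lower in place of 4339. The other non-glycolytic targets called lower numbered 2 with a mean FPKM of at least 5, with library size alone and with both limma fits on FPKM, and 1 with TPM, in place of 5. With TPM the glycolytic targets called lower numbered 6, the KEGG genes 13 and the GO genes 33, with 52 GO genes higher, while the filter at 5 FPKM left 36 GO genes lower. VHL was above 0 with a mean FPKM of at least 5 (0.081), library size alone (0.088), limma on log2(FPKM + 1) (0.079) or log2(FPKM + 0.1) (0.083) and TPM (0.20). The last 3 lists and the genes outside the 10 were added to the alternatives after seeing the data. Of those genes, the fall of BHLHE41 was lost in 6 settings that of LOXL2 with TPM and the rise of RBX1 without either of 2 samples, while a rise of KDM4B was called in 5 settings. The cause of these differences was not tested.

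Deviations of same-numbered samples from their group means had correlations of -0.004, 0.058 and -0.027 in replicates 1, 2 and 3. Those of differently numbered samples ranged from -0.070 to 0.071. The labels name no shared batch, and these correlations cannot exclude one that touches part of the genes. The replicate block gave 4221 genes higher and 4120 lower, against 4490 and 4339 without it, and ended the call of ADM among the 10 genes. The 4 ratios between genes kept their direction in all 8 alternatives each. EGLN3 had at most 78 counts in a sample, and its interval, from -1.40 to 0.15 on the log2 scale with all genes in the fit, was wide.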
